A study of Mus musculus with 6 samples.

Results

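Genes of the major histocompatibility complex (MHC, called H2 in the mouse) and of antigen presentation were followed in mouse liver sinusoidal endothelial cells after loss of liver tissue. The set held every protein-coding gene whose symbol starts with H2-, which gave 38 genes, and 18 further genes taken by name for antigen presentation or costimulation. These 56 genes were drawn from a table of 48897. The cells came from C57BL/6 mice aged 7 to 8 weeks, which had undergone either a sham operation or partial hepatectomy (PHx, in which a portion of the liver is taken out) 14 days earlier, and the labels name no further allele or agent in either group. Cells were selected on beads coated with antibody to CD146, which is not restricted to the sinusoidal endothelium, and their RNA was sequenced as pairs of 150-base reads. Each group held 3 libraries, numbered 1, 3 and 4. The labels do not say that the libraries came from separate animals, so the p-values speak only of sample-to-sample spread, part or all of which may be technical.

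MHC class I molecules pair a heavy chain with beta-2-microglobulin and carry peptides cut by the proteasome, imported by the TAP transporter and loaded in the endoplasmic reticulum. MHC class II molecules pair an alpha and a beta chain, travel with the invariant chain Cd74 and receive peptides of endocytosed proteins. Sinusoidal endothelial cells are known to take up blood-borne antigen and to present it to T cells in a setting that favours tolerance. NLRC5 drives transcription of class I genes and CIITA that of class II genes, both through factors bound to a shared promoter module.

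The 56 genes comprised 40 on the class I side, 12 on the class II side, 3 costimulatory ligands and H2-Ke6. The class I side held 2 classical heavy chains, 26 non-classical heavy chains (Cd1d1 included), B2m, 5 genes of peptide loading, 5 of the immunoproteasome and its activator, and Nlrc5. The class II side held 5 presenting chains, 6 genes of peptide exchange and Ciita. H2-Ke6, also named Hsd17b8, carries an H2 symbol for its position but encodes a dehydrogenase. Enough reads for a test were found for 43 of them, namely 28 on the class I side, 11 on the class II side, the 3 ligands and H2-Ke6. The 13 without a test included 8 heavy chain genes with a count of 0 in all 6 libraries (H2-M1, H2-M9, H2-M10.1, H2-M10.3, H2-M10.4, H2-M10.5, H2-M10.6 and H2-M11). The remaining 5, H2-M10.2, H2-T3, H2-Bl, H2-M2 and H2-Ea-ps, had between 0 and 41 counts per library. For a gene at 0 the upper limit is 3 counts, equal to 0.0578 to 0.0774 CPM (counts scaled to library size), by counting error only.

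Promoter sequence was read for 43 of the 56 genes from RefSeq (GRCm38.p6), in windows of 250 bases before the annotated start. 6 stretches are shown because they carry, or lack, the letters that the class I and class II genes share. Capitals mark GGGGATTCCCC, a known form of the NF-kB site of the class I enhancer. It is the core (5 bases on either side of the centre) of the longest inverted repeat around a single base in the H2-K1 window. Capitals also mark part of the module that RFX, CREB and NFY factors bind. This part was searched as TGANG followed by ATTGG with 18 to 24 bases between them. TGANG stands for the CREB box and ATTGG for the NFY box, and the RFX box was neither searched nor marked. Both strands were searched, and ATTGG alone, the core of the NFY box, overlaps the pair. The motifs and the spacing were set after these promoters had been read. The stretches end at or just before the annotated start and hold no annotated exon, and in H2-Eb1 overlapping matches of TGANG make a longer run of capitals. They lie at chr17:34000348-34000532 (H2-K1, minus strand), chr17:35424665-35424849 (H2-Q6, plus strand), chr17:35469904-35470088 (H2-Q10, plus strand), chr2:122147501-122147685 (B2m, plus strand), chr17:34287824-34288008 (H2-Aa, minus strand) and chr17:34305721-34305866 (H2-Eb1, plus strand), each written 5′ to 3′ on the gene's strand.
H2-K1: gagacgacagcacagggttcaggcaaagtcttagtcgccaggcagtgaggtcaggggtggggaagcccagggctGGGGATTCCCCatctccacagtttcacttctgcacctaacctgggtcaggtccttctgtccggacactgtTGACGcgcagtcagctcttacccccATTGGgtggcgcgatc
H2-Q6: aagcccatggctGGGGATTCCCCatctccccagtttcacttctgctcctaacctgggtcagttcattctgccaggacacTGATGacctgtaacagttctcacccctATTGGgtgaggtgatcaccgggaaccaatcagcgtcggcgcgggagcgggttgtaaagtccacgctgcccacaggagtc
H2-Q10: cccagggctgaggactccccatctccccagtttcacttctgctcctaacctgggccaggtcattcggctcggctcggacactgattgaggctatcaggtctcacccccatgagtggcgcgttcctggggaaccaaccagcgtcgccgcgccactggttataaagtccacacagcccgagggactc
B2m: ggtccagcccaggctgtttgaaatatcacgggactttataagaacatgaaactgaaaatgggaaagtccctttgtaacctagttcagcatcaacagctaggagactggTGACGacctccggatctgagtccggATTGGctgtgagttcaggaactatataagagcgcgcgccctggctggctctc
H2-Aa: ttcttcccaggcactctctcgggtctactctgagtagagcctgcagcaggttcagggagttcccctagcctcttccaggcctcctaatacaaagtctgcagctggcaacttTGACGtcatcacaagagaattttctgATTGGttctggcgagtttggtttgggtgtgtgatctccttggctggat
H2-Eb1: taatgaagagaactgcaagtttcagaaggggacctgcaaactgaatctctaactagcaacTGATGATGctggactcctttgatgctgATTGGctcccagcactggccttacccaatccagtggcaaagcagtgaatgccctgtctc

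GGGGATTCCCC was present in 10 of all 32851 promoter windows (0.0304%), and 3 class I genes of the set held it, H2-K1, H2-D1 and H2-Q6. Each gene of the set was counted once, with a match in any of its windows. These counts of genes therefore have another base than the shares of single windows. The TGANG and ATTGG pair was present in 538 windows (1.64%). It was present in 7 of the 32 class I genes with a window. Of the 8 class II genes with a window 5 held it (H2-Aa, H2-Eb1, H2-Eb2, H2-DMb1 and H2-DMb2). ATTGG alone was present in 33.8% of all windows, in 24 of these class I genes and in all 8 class II genes. GAANNGAAA, which resembles the interferon-stimulated response element but has a shorter spacing, was found in 6.31% of all windows. It was found in 8 of these class I genes and in none of these class II genes. The search missed forms with the usual spacing, such as gaaactgaaa in the B2m stretch. Its counts therefore do not show which genes lack that element. B2m, which lies on another chromosome, held the pair and no GGGGATTCCCC. H2-Q10 held neither in the stretch shown, where related but different letters stand at the same place. Genes of 1 family share sequence by descent, so these windows are not independent, and a match describes letters only.

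Summed counts per library ranged from 38765116 to 51888481. Markers of the labelled cell type were high in all libraries, with 12 sinusoidal endothelial genes summing to between 32070.2 and 33949 CPM in sham and between 17600 and 27440.0 CPM after PHx. None of the 12 passed the edgeR test, and 10 of them were lower in every PHx library than in every sham library (9.96% of all tested genes were). 8 had an unadjusted p under 0.05 and were lower (4.73% of all tested genes), and DESeq2 called 5 lower (0.641% of all tested genes). The 10 stellate cell and fibroblast markers summed to between 1726 and 2273 CPM in sham and between 5064 and 6545 CPM after PHx, and edgeR called 6 of them higher (0.846% of all tested genes). Neutrophil markers varied most, from 26.5 CPM in PHx 3 to 4195 CPM in PHx 4. These are RNA levels of whole preparations, in which fewer cells of a type and less RNA per cell cannot be told apart.

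**Figure D1:**
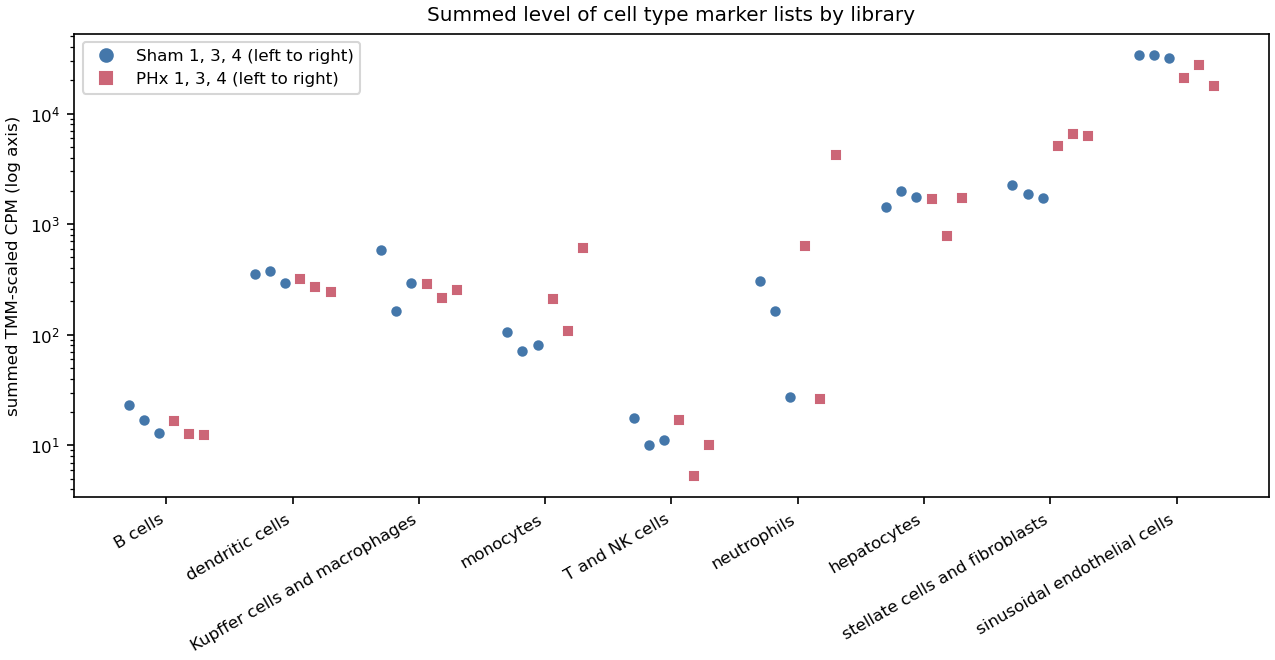
Summed TMM-scaled CPM of the marker genes of 9 cell types (logarithmic vertical axis) in each library; circles are sham and squares PHx libraries. The sinusoidal endothelial sum is lower and the stellate sum higher in all 3 PHx libraries, and the neutrophil sum is highest in PHx 4.

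The comparison asked whether class I and class II RNA levels differed after PHx. No gene of the set passed the edgeR quasi-likelihood test at an adjusted p under 0.05, where 0.862% of the 19033 tested genes did (0.846% higher and 0.0158% lower). Without adjustment, 7 of the 43 had a p under 0.05 and were lower, all on the class I side (H2-T23, Tapbpl, Tap2, H2-K1, Psme1, H2-Q7 and H2-D1), beside 4.73% of all tested genes. Cd80 alone had an unadjusted p under 0.05 and was higher, beside 7.93% of all tested genes. DESeq2 called Cd80 higher and none of the set lower, beside 3.78% and 0.641% of all tested genes, and limma-voom called none of the set (0). The lowest adjusted p of the set was 0.287, for H2-T23 (edgeR).

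The class I and class II sides nevertheless lay on different sides of 0. Of the 28 tested class I genes 26 had a log2 fold change (PHx against sham) below 0, with a median of -0.36 and a range from -1.10 to 0.08. The exceptions were H2-T-ps (0.08) and Psme2 (0.03). Of the 11 tested class II genes 9 had one above 0, with a median of 0.34, the exceptions being H2-DMa and H2-DMb1 (-0.05 each). The medians differed by 0.70, while the median over all tested genes was 0.03 and 47% of them had a value below 0 and 53% above 0. 11 class I genes were lower in every PHx library than in every sham library, beside 9.96% of all tested genes (2008 genes were higher in this way), and no class II gene separated the groups in either direction. Without PHx 1 the class II median was -0.041 and 4 of the 11 values were above 0, so the class II direction rested on that library. Without sham 3 the class II median was 0.12.

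**Figure D2:**
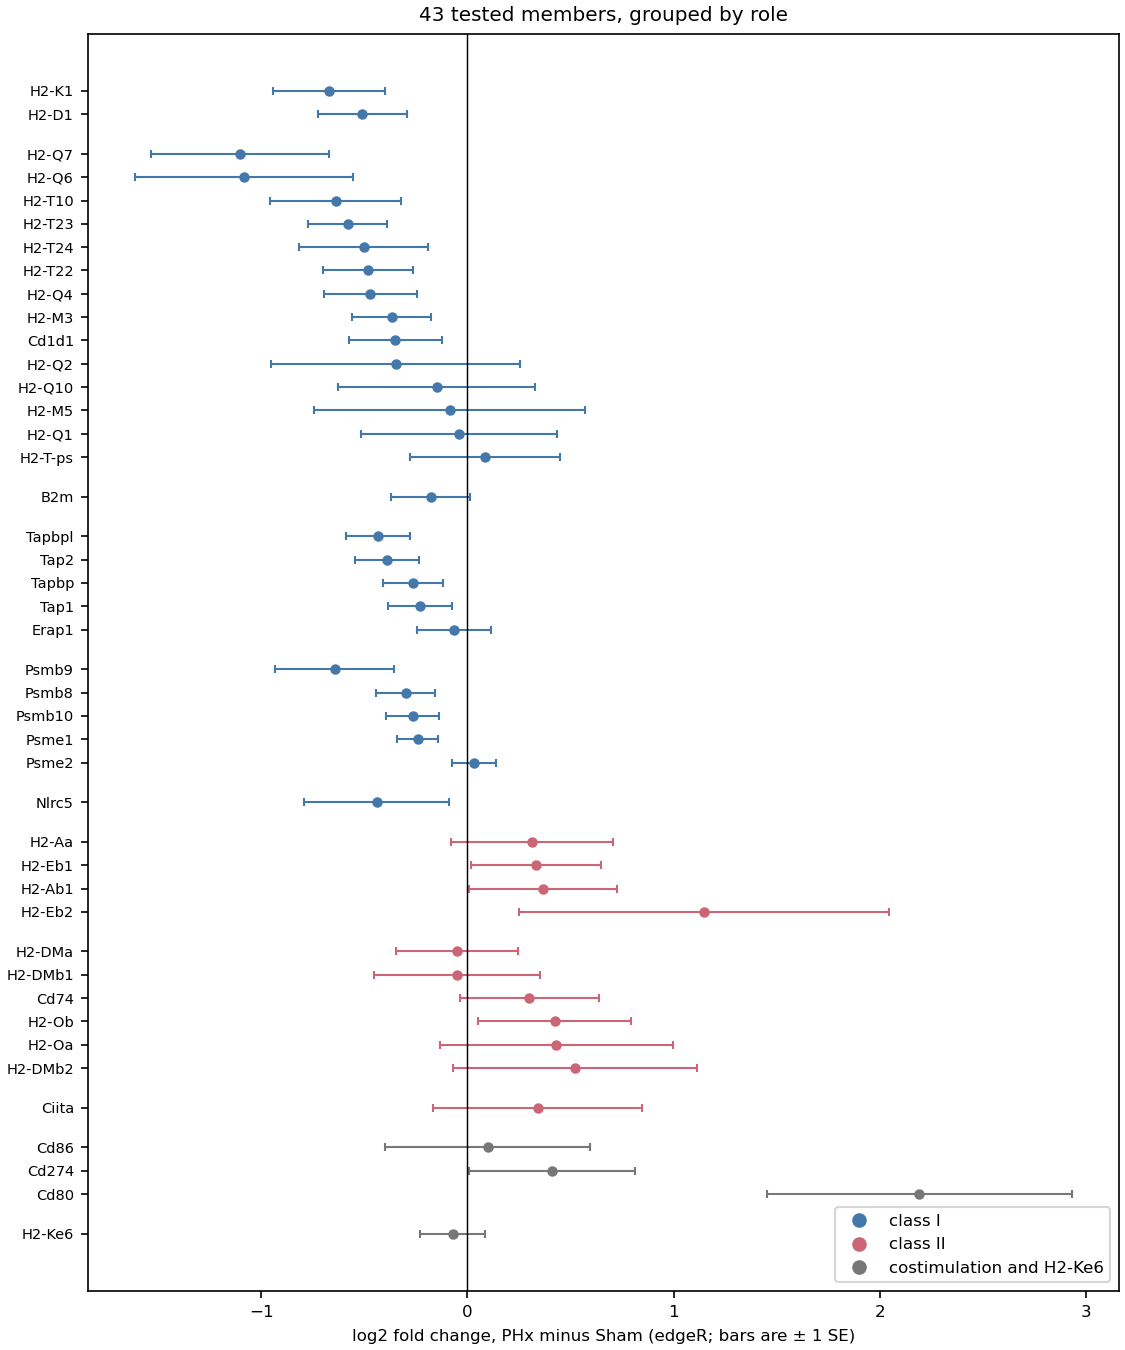
Log2 fold change of each tested gene, PHx minus sham, with bars of 1 SE from edgeR (3 libraries per group), grouped by role. Class I points lie mostly to the left of 0 and class II points mostly to the right, and no gene passed the adjusted threshold.

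Single libraries differed within the groups. On the log2(CPM + 0.5) scale, relative to the sham mean, the class I median was 0.15, -0.06 and -0.05 in sham 1, 3 and 4. After PHx it was -0.19, -0.22 and -0.57 in PHx 1, 3 and 4. All 3 PHx values were thus below the lowest sham value, with PHx 4 lowest, and 23 of the 28 class I genes had their lowest level of all in PHx 4 (25.4% of all tested genes did). Without PHx 4 the class I median was -0.28, and 14 of the 28 log2 fold changes kept their sign but shrank by over 1.5 times, among them those of H2-K1 (-0.45), Tap2 (-0.24), Psmb9 (-0.37) and H2-T24 (-0.21), while 2 turned and 4 grew by over 1.5 times. The sinusoidal endothelial marker sum was 20779, 27440.0 and 17600 CPM in PHx 1, 3 and 4, below all sham libraries and also lowest in PHx 4, which had the highest neutrophil sum. The part of these differences in cell makeup in the class I levels was not tested. The class II median was 0.41, -0.38 and -0.0019 in sham and 0.73, -0.23 and 0.16 after PHx. Here the groups overlapped, sham 3 and PHx 3 were low together, and 10 of the 11 class II genes had their highest level in PHx 1 (16.7% of all tested genes did).

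**Figure D3:**
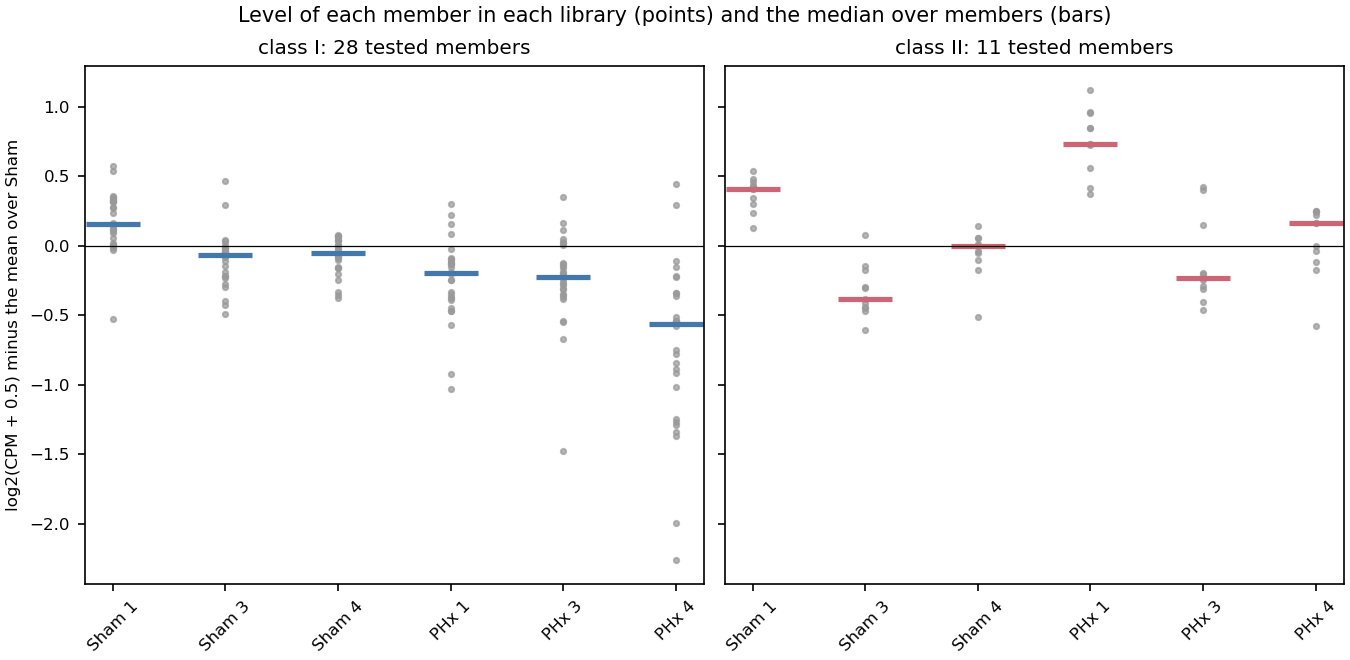
Level of each tested gene in each library as log2(CPM + 0.5) minus the mean over sham (points), with the median over genes (bars), for class I (left) and class II (right). The class I median is lowest in PHx 4 at -0.57, and the class II median is highest in PHx 1 at 0.73.

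H2-K1 and H2-D1 are the classical class I heavy chains of this strain, which present peptides to CD8 T cells. H2-K1 (chromosome 17, 33996012 to 34000341, mm10) stood at 2733, 1743 and 2066 CPM in sham 1, 3 and 4 and at 1545, 1657 and 902 CPM in PHx 1, 3 and 4. Every PHx library was below every sham library, with PHx 3 close to sham 3. The means were 2181 ± 505 and 1368 ± 407 CPM (SD, n = 3), a log2 fold change of -0.67 ± 0.27 (SE) with an edgeR adjusted p of 0.370. H2-D1 (chromosome 17, 35263094 to 35267497) stood at 2989, 2049.7 and 2219 CPM in sham and at 1842, 1926 and 1329.5 CPM after PHx. Again the groups did not overlap and PHx 4 was lowest. Its log2 fold change was -0.51 ± 0.22 (edgeR adjusted p = 0.389). Over the alternative analyses the adjusted p of H2-K1 ran from 0.155 to 0.613 and that of H2-D1 from 0.198 to 0.657.

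B2m, the light chain shared by class I molecules, had a smaller difference. It stood at 2114, 1717 and 2073 CPM in sham and at 1834, 2031 and 1349.8 CPM after PHx (chromosome 2, 122147687 to 122153082). The groups overlapped, and only PHx 4 was below all sham libraries. The log2 fold change was -0.18 ± 0.19 (edgeR adjusted p = 0.718), and -0.027 without PHx 4. Per length, as deposited RPKM, B2m was the most abundant gene of the set, with a mean of 2262 in sham and 2054 after PHx. H2-D1 followed at 1373 and 993.2 RPKM and H2-K1 at 986.9 and 638.5 RPKM.

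Non-classical heavy chains have narrower tasks, and 14 of 26 were tested. 13 had a log2 fold change below 0, with a median of -0.42. H2-T23 encodes Qa-1, which presents leader peptides of other class I chains to receptors of NK cells. Its level was 570.3, 506 and 454 CPM in sham and 373, 399.7 and 251 CPM after PHx, without overlap (chromosome 17, 36029977 to 36032701). The log2 fold change was -0.58 ± 0.19, with an edgeR adjusted p of 0.287 and a range from 0.0977 to 0.602 over the alternatives. H2-Q7, which encodes the Qa-2 antigen, stood at 322, 160.5 and 194 CPM in sham and at 114, 147 and 53.7 CPM after PHx (chromosome 17, 35439147 to 35443773). The groups did not overlap, though PHx 3 came close to sham 3. Its log2 fold change of -1.10 ± 0.43 was the lowest of the set (edgeR adjusted p = 0.380, and 0.063 to 0.602 over the alternatives).

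H2-Q6, its neighbour and near copy, had a log2 fold change of -1.08 ± 0.53, and there the groups overlapped. Of all 150-base windows of their longest transcripts, 9.68% for H2-Q7 and 5.99% for H2-Q6 occurred in a relative (H2-Q6, H2-Q7 or H2-Q5), so some reads cannot be assigned to 1 gene. H2-K1 and H2-Q4 shared no such window, and H2-D1 shared 1.79% with H2-Q1. H2-Q4 had a log2 fold change of -0.47 ± 0.23, H2-T22 of -0.48 ± 0.22 and H2-T10 of -0.64 ± 0.32, all with overlap between the groups. H2-T22 and H2-T10 encode ligands of gamma-delta T cells. H2-T24 (-0.50 ± 0.31) and H2-M3 (-0.37 ± 0.19), which presents formylated bacterial peptides, overlapped as well. The tested chains of low abundance were H2-Q2 (-0.35), H2-M5 (-0.09), H2-Q1 (-0.04) and H2-T-ps (0.08).

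Cd1d1 presents lipids to NKT cells and lies outside the MHC on chromosome 3, 86995834 to 86999340. It stood at 6.73, 6.61 and 6.75 CPM in sham and at 6.07, 4.01 and 5.67 CPM after PHx. All PHx libraries were lower, and here PHx 3 was lowest. The log2 fold change was -0.35 ± 0.23 (edgeR adjusted p = 0.541), and 6.62% of its windows occurred in Cd1d2. H2-Q10, a secreted class I chain made by hepatocytes, stood at 29.3, 34.6 and 21.96 CPM in sham and at 33.0, 9.77 and 34.7 CPM after PHx (chromosome 17, 35470089 to 35474563). PHx 3 was low and the other PHx libraries were within or just above the sham range, giving a log2 fold change of -0.15 ± 0.48 (edgeR adjusted p = 0.920). The 10 hepatocyte markers summed to between 1440.4 and 1984 CPM in sham, and to 1697, 776 and 1709.5 CPM in PHx 1, 3 and 4, lowest in the same library. The part of hepatocyte RNA in the H2-Q10 level was not tested.

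**Figure D4:**
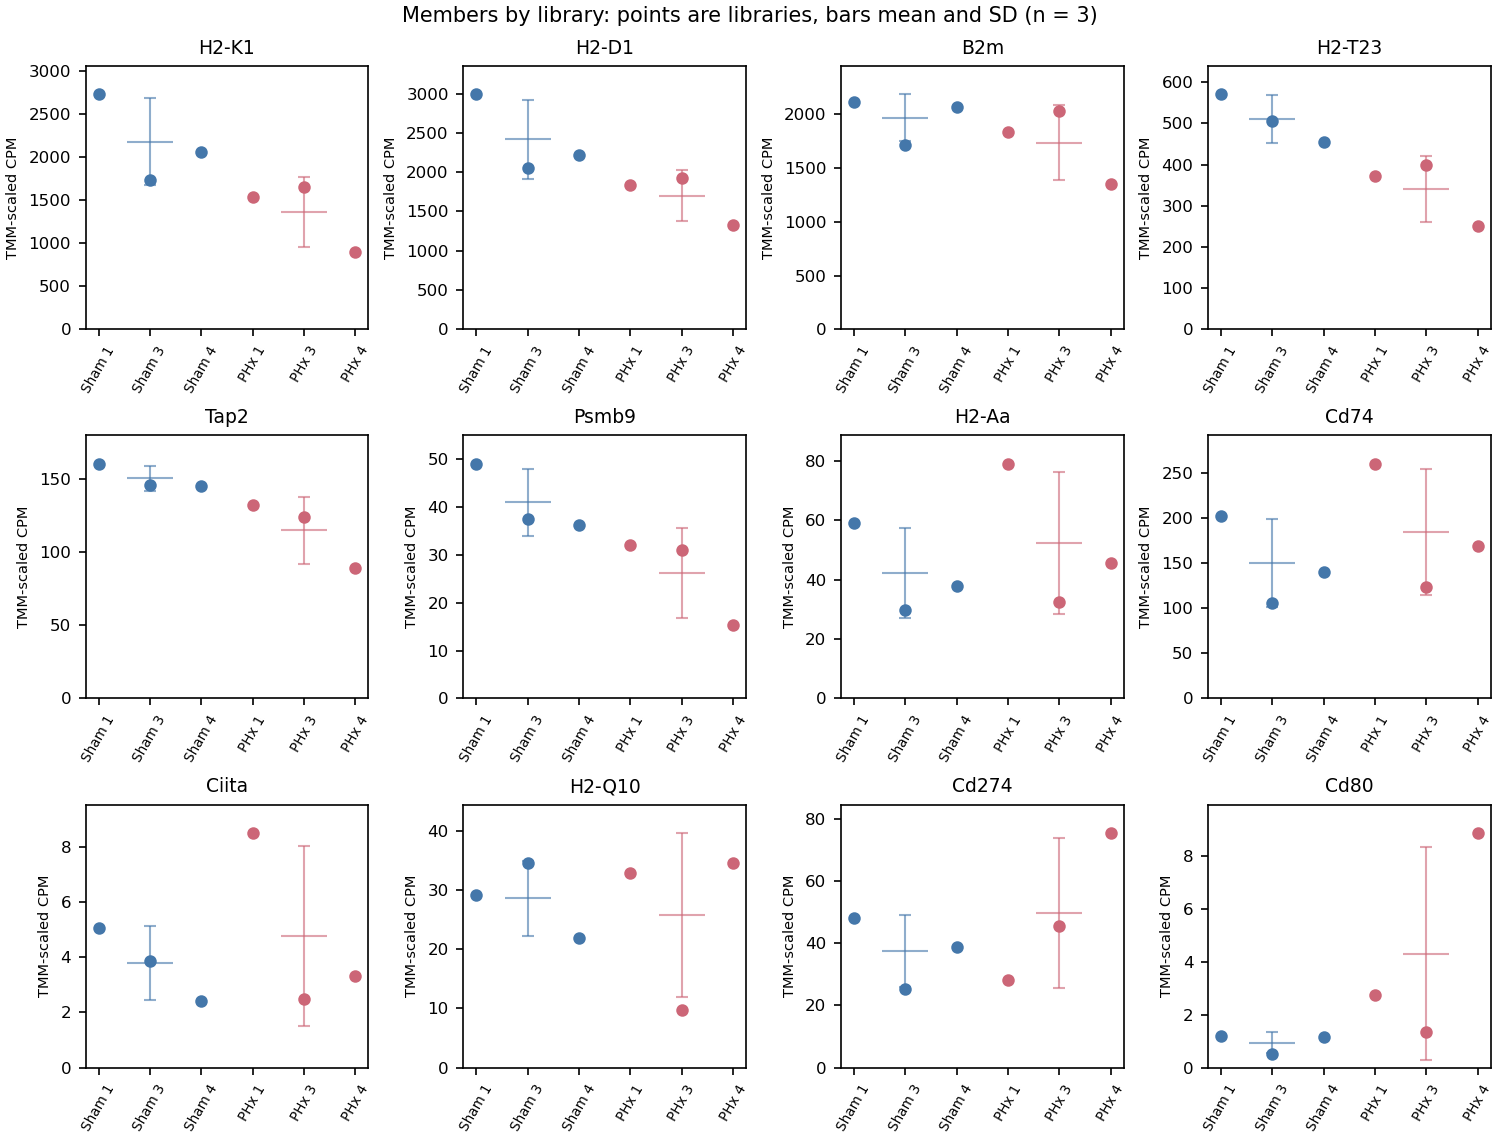
TMM-scaled CPM of 12 genes in each library (points), with the mean and SD of each group (n = 3). H2-K1, H2-D1, H2-T23, Tap2 and Psmb9 are lower in all PHx libraries; H2-Aa, Cd74 and Ciita are highest in PHx 1, and Cd80 and Cd274 in PHx 4.

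Peptide loading genes all had log2 fold changes below 0, with a median of -0.26. Tap2, a half-transporter that moves peptides into the endoplasmic reticulum, stood at 161, 146 and 145 CPM in sham and at 132, 124 and 89.2 CPM after PHx (chromosome 17, 34204479 to 34216321). The groups did not overlap, and the log2 fold change was -0.39 ± 0.15 (edgeR adjusted p = 0.364). Its partner Tap1 stood at 134, 97.9 and 112 CPM in sham and at 89.2, 115 and 88.4 CPM after PHx, with overlap and a log2 fold change of -0.23 ± 0.16. Tapbpl, a peptide editor related to tapasin, stood at 36.2, 37.2 and 35.3 CPM in sham and at 30.4, 29.1 and 20.9 CPM after PHx (chromosome 6, 125223927 to 125231923). The sham libraries lay close together and above all PHx libraries, with a log2 fold change of -0.43 ± 0.15 (edgeR adjusted p = 0.318). Tapasin itself, Tapbp, also did not overlap (-0.26 ± 0.15). Erap1, which trims peptides, had -0.06 ± 0.18.

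The immunoproteasome subunits Psmb8, Psmb9 and Psmb10 replace the constitutive Psmb5, Psmb6 and Psmb7 and favour peptides that fit class I. Psmb8 stood at 61.97, 50.6 and 56.3 CPM in sham and at 52.3, 46.8 and 38.2 CPM after PHx (chromosome 17, 34198195 to 34201454), with overlap of PHx 1 and sham 3. Its log2 fold change was -0.30 ± 0.14 (edgeR adjusted p = 0.435). Psmb9 (-0.64 ± 0.29) and Psmb10 (-0.27 ± 0.13) were lower without overlap. Psme1, a subunit of the PA28 activator, stood at 94.8, 91.3 and 97.3 CPM in sham and at 86.8, 78.1 and 74.6 CPM after PHx (chromosome 14, 55578494 to 55581527). The groups did not overlap, and the log2 fold change of -0.24 ± 0.10 was small (edgeR adjusted p = 0.370). The other PA28 subunit, Psme2, had 0.03 ± 0.11, and 32.5% of its windows also occurred in Psme2b. The 5 constitutive counterparts (3 subunits and the activators Psme3 and Psme4) had a median of 0.01 and values between -0.09 and 0.13, none of them called.

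Nlrc5, the class I transactivator, stood at 107, 84.7 and 64.5 CPM in sham and at 82.3, 72.5 and 34.5 CPM after PHx (chromosome 8, 94434354 to 94527272). The groups overlapped, and PHx 4 was lowest. Its log2 fold change was -0.44 ± 0.35 (edgeR adjusted p = 0.628), and it ran from -0.68 without PHx 1 to -0.14 without PHx 4.

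The class II presenting chains of this strain are H2-Aa and H2-Ab1, which form the A molecule. H2-Aa stood at 59.1, 29.8 and 37.8 CPM in sham and at 79.2, 32.5 and 45.6 CPM after PHx (chromosome 17, 34282751 to 34287771). H2-Ab1 stood at 51.9, 29.4 and 37.0 CPM in sham and at 75.2, 31.3 and 45.8 CPM after PHx (chromosome 17, 34263227 to 34269418). In both genes PHx 1 was highest, sham 1 next, and PHx 3 and sham 3 lowest. The log2 fold changes were 0.31 ± 0.39 for H2-Aa and 0.37 ± 0.36 for H2-Ab1 (edgeR adjusted p = 0.769 and 0.697). H2-Eb1, the beta chain of the E molecule, ordered the libraries the same way, at 53.8, 30.3 and 40.7 CPM in sham and 73.4, 35.2 and 48.2 CPM after PHx (chromosome 17, 34305867 to 34316674). Its log2 fold change was 0.33 ± 0.32 (edgeR adjusted p = 0.685). H2-Eb2 was near the detection limit, at 0.0387 to 0.599 CPM, and H2-Ea-ps, the E alpha gene that this strain carries in a defective form, had at most 2 counts in a library.

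Cd74, the invariant chain, was the most abundant class II gene per length, at 104 RPKM in sham and 133 RPKM after PHx. It stood at 202, 106 and 141 CPM in sham and at 260.3, 123 and 169 CPM after PHx (chromosome 18, 60803849 to 60812652). The order of the libraries was that of the presenting chains, and the log2 fold change was 0.30 ± 0.34 (edgeR adjusted p = 0.734). H2-DMa, a subunit of the exchange factor that removes the invariant chain peptide, stood at 6.28, 4.20 and 5.51 CPM in sham and at 6.95, 3.85 and 4.60 CPM after PHx (chromosome 17, 34122719 to 34139101). The groups overlapped, with a log2 fold change of -0.05 ± 0.30 (edgeR adjusted p = 0.959). H2-DMb1 had -0.05 ± 0.40 and H2-DMb2 0.52 ± 0.59. H2-Oa (0.43 ± 0.56) and H2-Ob (0.42 ± 0.37), which restrain the exchange factor, overlapped between the groups too.

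Ciita, the class II transactivator, stood at 5.06, 3.87 and 2.40 CPM in sham and at 8.499, 2.499 and 3.31 CPM after PHx (chromosome 16, 10480014 to 10528606). PHx 1 was highest and sham 1 next, as for the chains. The log2 fold change was 0.34 ± 0.51 (edgeR adjusted p = 0.804).

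Other cells in the preparation also express class II genes, so their markers are given beside these values. The 8 B cell markers summed to 23.2, 16.9 and 13.04 CPM in sham and to 16.7, 12.7 and 12.4 CPM after PHx. Blk was the largest part of this sum in every library, from 4.59 CPM in sham 4 to 10.46 CPM in sham 3. By gene, 1 of the 8 (Ms4a1, 0.753 CPM) was highest in PHx 1 and the others in a sham library. Of the 8 genes 2 had a log2 fold change above 0 and 6 below, with a median of -0.42. The 10 dendritic cell markers summed to between 291 and 379 CPM in sham and between 244 and 316 CPM after PHx. Most of that sum came from Zbtb46, highest in sham 3, and Clec9a, which was lower in every PHx library (58.4 to 61.2 against 76.2 to 86.1 CPM). By gene, 3 of the 10 (Flt3, Siglech and Cd209a) were highest in PHx 1, the library with the highest class II levels, 2 (Itgax and Batf3) in PHx 4 and the other 5 in a sham library. Flt3 stood at 4.19 CPM in PHx 1 and between 0.348 and 1.19 CPM elsewhere. Siglech stood at 1.35, 1.08 and 1.06 CPM in sham and at 10.55, 4.18 and 2.96 CPM after PHx. Its log2 fold change was 2.34 ± 0.50 (adjusted p = 0.0981 in edgeR and 2.05e-04 in DESeq2). Cd209a was also higher in every PHx library (0.687 to 1.37 against 0.367 to 0.406 CPM). Of the 10 genes 7 had a log2 fold change above 0 and 3 below, with a median of 0.47. DESeq2 called 2 of them, Siglech higher and Clec9a lower. Kupffer cell and macrophage markers were highest in sham 1 (586 CPM) and between 165 and 293 CPM in the other libraries. The 6 monocyte markers summed to 105, 71.8 and 80.3 CPM in sham and to 209, 109 and 612 CPM after PHx. This sum was higher in every PHx library than in every sham library, and most of it came from Lyz2. Of the 6 genes 5 had a log2 fold change above 0 and 1 below, with a median of 1.34, and neither edgeR nor DESeq2 called any. No gene of these lists was at 0 over all libraries, and the part of such cells in the class II levels was not tested.

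Ratios of counts within a library need no scaling between libraries, and 8 were compared by exact two-sided permutation tests, which cannot go below p = 0.1 with 3 libraries against 3. They depend on gene length, so only their differences between libraries are read. The ratio of B2m to Cd74 was 10.44, 16.2 and 14.7 in sham and 7.05, 16.5 and 7.99 after PHx. It was low in PHx 1 and PHx 4, while PHx 3 was above all sham libraries. The difference in mean log2 ratio was -0.48 (exact p = 0.4, adjusted over the 8 ratios 0.457). The ratio of H2-K1 to H2-Aa was 46.2, 58.5 and 54.6 in sham and 19.5, 50.9 and 19.8 after PHx, a log2 difference of -0.97 (exact p = 0.2, adjusted 0.32). Here PHx 3 lay within the sham range and the other PHx libraries far below it.

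The other 6 ratios were chosen after the values were seen. H2-K1 over B2m was 1.29, 1.01 and 0.997 in sham and 0.842, 0.816 and 0.668 after PHx, a log2 difference of -0.50 without overlap. H2-D1 over B2m was 1.41, 1.19 and 1.07 in sham and 1.004, 0.948 and 0.985 after PHx, a log2 difference of -0.31 without overlap. Counts of H2-K1 and H2-D1 were thus lower relative to B2m in every PHx library than in every sham library. The other heavy chains were not set over B2m. Psmb8 over Psmb5 was 2.25, 1.97 and 2.12 in sham and 1.78, 1.92 and 1.42 after PHx (-0.32), again without overlap. Each of these 3 reached the smallest possible exact p of 0.1 (adjusted 0.267). Psmb9 over Psmb6 (-0.61, exact p = 0.2) and Psmb10 over Psmb7 (-0.31, exact p = 0.3) overlapped. H2-Aa over H2-Ab1 lay between 0.997 and 1.14 in all 6 libraries (-0.04, exact p = 0.8), so the 2 chains of the A molecule kept nearly the same proportion.

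**Figure D5:**
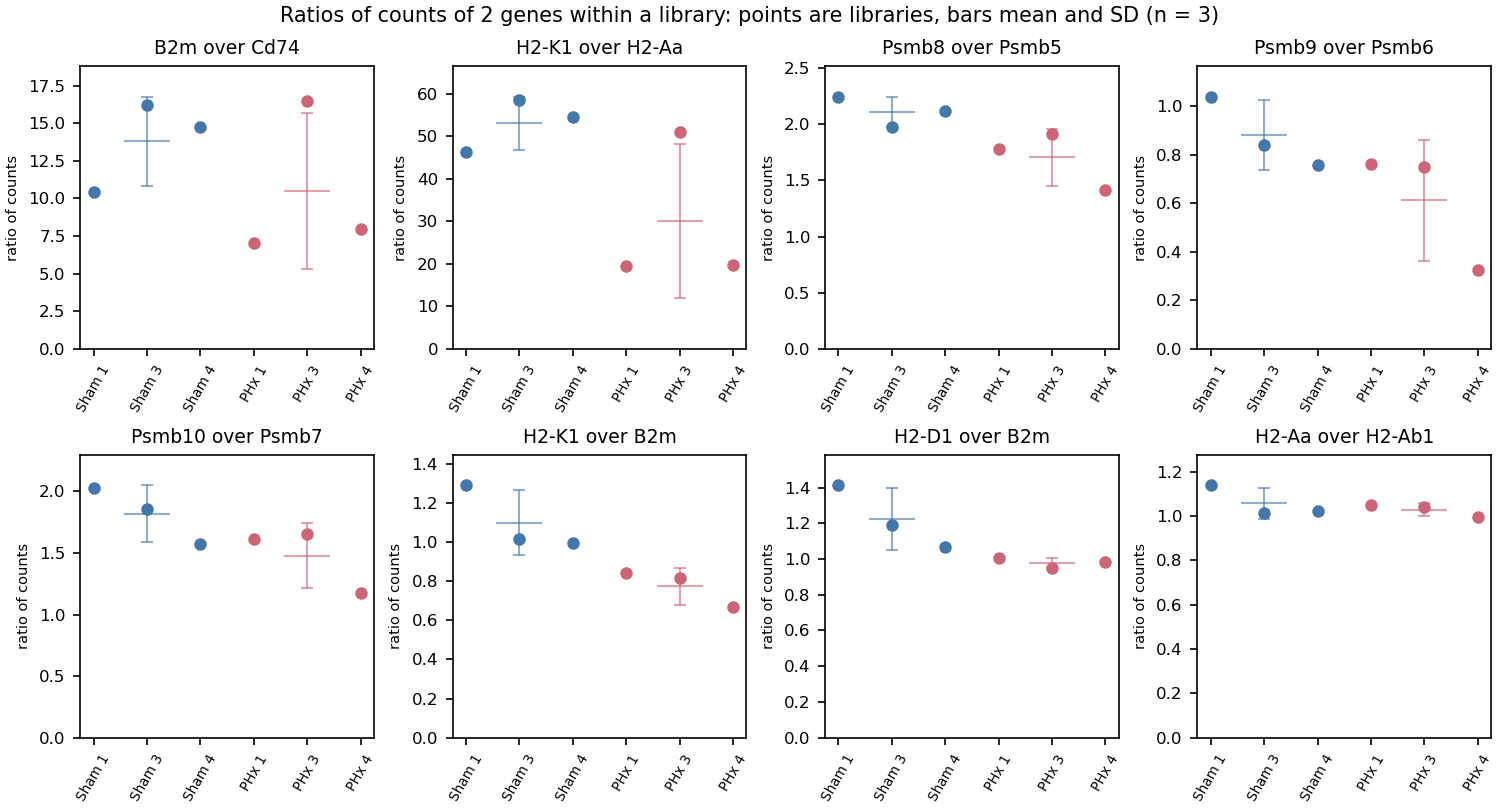
Ratio of the counts of 2 genes within each library (points), with the mean and SD of each group (n = 3), for 8 pairs. H2-K1 over B2m, H2-D1 over B2m and Psmb8 over Psmb5 are lower in all PHx libraries, and H2-Aa over H2-Ab1 stays between 0.997 and 1.14.

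Costimulatory ligands decide how a T cell responds to a presented peptide. Cd80, a ligand of CD28 and CTLA-4, stood at 1.19, 0.503 and 1.14 CPM in sham and at 2.72, 1.33 and 8.87 CPM after PHx (chromosome 16, 38457431 to 38495958). All PHx libraries were higher, PHx 4 by far the most. It was 1 of 4 among the 43 tested genes of the set with their highest level in PHx 4, beside 26.6% of all tested genes. The log2 fold change was 2.19 ± 0.74, with an adjusted p of 0.301 in edgeR and 0.0347 in DESeq2. Over the alternatives the adjusted p ran from 0.0347 to 0.675, and without PHx 4 the log2 fold change was 1.10 (edgeR adjusted p = 0.607). PHx 4 was also the library with the highest neutrophil and monocyte marker sums (4195 and 612 CPM), and their part in the Cd80 level was not tested.

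Cd86, which binds the same receptors, stood at 4.06, 1.37 and 1.93 CPM in sham and at 1.93, 1.97 and 3.96 CPM after PHx (chromosome 16, 36568956 to 36666077). The groups overlapped fully, with a log2 fold change of 0.10 ± 0.50 (edgeR adjusted p = 0.953). Cd274, which encodes the inhibitory ligand PD-L1, stood at 48.2, 25.3 and 38.7 CPM in sham and at 28.1, 45.5 and 75.5 CPM after PHx (chromosome 19, 29367438 to 29388095). PHx 4 was highest and PHx 1 was among the lowest, with a log2 fold change of 0.41 ± 0.40 (edgeR adjusted p = 0.699). H2-Ke6 had -0.07 ± 0.16.

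Among genes upstream and alongside, no member of 7 further lists was called by edgeR, beside 0.862% of all tested genes. In the edgeR test 2 (Jak1 and Ctsl) had an unadjusted p under 0.05 and were lower, beside 4.73% of all tested genes. None was higher at that threshold, beside 7.93% of all tested genes. DESeq2 called only Jak1, which was lower, beside 0.641% of all tested genes. Of 13 interferon-gamma signalling genes, which induce both classes in many cells, 10 had a log2 fold change above 0 and 3 below, with a median of 0.07. Jak1, a kinase of the interferon receptors, stood at 2112, 2029 and 2094 CPM in sham and at 1239, 1629 and 1321 CPM after PHx. The groups did not overlap, and the log2 fold change was -0.57 ± 0.15 (adjusted p = 0.189 in edgeR and 0.00547 in DESeq2). Socs3, a feedback inhibitor, had 0.56 ± 0.43. Irf1, picked out after its values were seen, is a transcription factor that acts on class I promoters. It ranged from 277 to 734 CPM in sham and from 220 to 1259 CPM after PHx (0.57 ± 0.68), and it was highest in PHx 4, where class I levels were lowest.

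The promoter factors of the RFX and NFY families showed little difference, with 7 genes tested, a median of -0.0024 and values from -0.27 to 0.12. Nfya had 0.12 and Creb1 0.11. The 5 chaperones of class I folding had a median near 0 and ranged from -0.09 for Calr to 0.59 ± 0.31 for Hspa5. Of 6 genes of endosomal processing 3, Ctsl, Ctsd and Lgmn, were lower in all PHx libraries than in all sham libraries, beside 9.96% of all tested genes. Ctsl is a protease that degrades the invariant chain. It stood at 978, 928 and 1124 CPM in sham and at 596, 841 and 697 CPM after PHx, a log2 fold change of -0.50 ± 0.17 (edgeR adjusted p = 0.281). Ctsb, another endosomal protease, had 0.01 ± 0.17. Of 3 ubiquitin ligases that remove surface MHC, Marchf8 had -0.17 and Marchf9 0.15. Of 12 other costimulatory and coinhibitory ligands 10 were tested and 9 had a value above 0, with a median of 0.38, and the most abundant, Vsir (0.02) and Lgals9 (0.08), were close to 0.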

How the data were processed

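RNA of 6 libraries was compared, 3 per group. The deposited table gave, per the file headers, for each gene and library an RPKM value and a count in whole numbers, with the gene's length in base pairs. The deposited RPKM equalled the count per length and per summed counts in 100% of values (relative tolerance 1e-06), and was used only for levels between genes. H2-DMa has a listed length of 6798 base pairs, which lowers its RPKM. TopHat2 2.0.13, bcl2fastq and the build mm10 (GRCm38) are listed in the submitters' processing notes; the counting program and its use of strand are not given in the sources used here, so reads of overlapping genes or near copies may be misassigned. 27 gene names turned into dates were restored. 17208 of 48897 genes had a count of 0 throughout.

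Tests on the deposited counts used edgeR 4.0.16 (R 4.3.3) (TMM scaling, filterByExpr, robust quasi-likelihood F-test, group as the only term, Benjamini-Hochberg adjustment over the 19033 tested genes, threshold 0.05). SEs were computed from the size of the log2 fold change and the F statistic (size over root F). All CPM are TMM-scaled, except the upper limit for genes at 0, which was scaled to the summed counts alone. Alternatives were other scaling factors and low-count filters, DESeq2 1.42.0, limma-voom (limma 3.58.1), the replicate number as a block and leaving out each library. The model was tested on simulated data. Per-library values are given for 17 genes set by role and for any with an unadjusted p under 0.05. From each further list the called genes, those with an unadjusted p under 0.05 and the 2 most abundant are named. The genes and lists were chosen with earlier results of these data known. Windows of 150 bases shared between genes were found in GENCODE M21 transcripts.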

Additional observations from a re-analysis of the deposited data

How the results depend on the processing

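No gene of the set was called under any alternative except DESeq2, which called 1 (Cd80). The class I median ranged from -0.42 to -0.28 and the number of class I genes below 0 from 24 to 27 when a library was left out. The class II median ranged from -0.041 to 0.58 and the class II genes above 0 from 4 to 11, the lowest of both without PHx 1. With a filter of at least 5 CPM, 5 class II genes were tested and 4 lay above 0. Over all tested genes the shared library numbers did not pair the samples (correlations of deviations -0.09, -0.23 and 0.03). No PHx library correlated best with its own number. In both groups, however, H2-Aa, H2-Ab1, H2-Eb1 and Cd74 were highest in library 1 and lowest in library 3. For Cd74, H2-Aa, H2-Eb1 and Nlrc5 the replicate block in edgeR gave the lowest adjusted p of the alternatives (0.388, 0.434, 0.391 and 0.362). With the replicate block no gene of the set was called (0), the class I median was -0.36 and the class II median 0.30. The B2m to Cd74 difference was then -0.48 (exact p = 0.5, by sign flips of the differences between libraries of the same number). The smallest possible p of that test is above the 0.1 of the other exact tests, so the 2 are not comparable. Without the block the B2m to Cd74 difference ran from -0.85 to -0.24 when each library was left out in turn. Over 58 named genes and all alternatives 742 log2 fold changes were recomputed, of which 47 turned their sign and 693 kept sign and call. 21 of the 28 tested class I genes never turned. Other settings turned Psme2 (-0.0018, upper-quartile scaling), Ctsb (-0.031 with that scaling, -0.024 without a low-count filter, -0.0080 in limma-voom, -0.0074 with the replicate block) and Vsir (-0.021 with that scaling, -0.015 without a filter). Leaving out a library turned these, with ranges of log2 fold change: Cd274 (-0.023 to 0.68), Cd74 (-0.043 to 0.55), Cd86 (-0.33 to 0.64), Ciita (-0.38 to 0.64), Erap1 (-0.20 to 0.13), H2-Aa (-0.12 to 0.61), H2-Ab1 (-0.041 to 0.61), H2-DMa (-0.34 to 0.11), H2-DMb1 (-0.51 to 0.19), H2-Eb1 (-0.0033 to 0.54), H2-Ke6 (-0.23 to 0.038), H2-M5 (-0.84 to 0.28), H2-Q1 (-0.42 to 0.18), H2-Q10 (-0.42 to 0.23), H2-Q2 (-0.75 to 0.14), H2-T-ps (-0.10 to 0.28), Psme2 (-0.045 to 0.094), Ctsb (-0.15 to 0.10), Socs3 (-0.040 to 0.85), Marchf9 (-0.098 to 0.28), Vsir (-0.11 to 0.097), Lgals9 (-0.013 to 0.088), Irf1 (-0.096 to 0.99). Leaving libraries out for the ratios of genes was chosen after seeing the data, and turned only H2-Aa over H2-Ab1 (-0.068 to 0.016). The cause was not tested in any of these. Genes under about 1 CPM rest on few counts, and 3 libraries per group limit the precision of all others.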

Other observations

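2 pseudogenes with H2 symbols, outside the protein-coding set, had enough reads for a test. H2-K2, next to H2-K1 on chromosome 17 (33974659 to 33978791), stood at 39.8, 36.6 and 39.4 CPM in sham and at 32.4, 40.4 and 25.5 CPM after PHx. The groups overlapped, with a log2 fold change of -0.24 ± 0.17 (SE) and an edgeR adjusted p of 0.582. H2-Q5, between H2-Q4 and H2-Q6 (35394099 to 35395630), stood at 59.8, 29.0 and 40.9 CPM in sham and at 20.3, 40.8 and 15.6 CPM after PHx. Its log2 fold change was -0.76 ± 0.43 (edgeR adjusted p = 0.511). Like H2-Q6 and H2-Q7 it was highest in sham 1 and lowest in PHx 4, as were many other class I genes (H2-K1, H2-D1 and B2m among them). Both transcripts resemble class I chains, and reads of near copies may be counted in either gene.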
